A study of Mus musculus with 9 samples.

Results

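Gene expression of mouse skin keratinocytes was compared between postnatal day 1 and postnatal day 7, the first step of a series that followed these cells to day 14. The step was defined by age alone, with 3 libraries of day 7 against 3 of day 1, or 6 of the 9 libraries in the series. The 9 libraries came from C57BL/6 mice, without a further allele, agent or treatment in the labels. Keratinocytes, the epithelial cells of the epidermis and hair follicle, were sorted from fresh skin as viable cells lacking the leukocyte marker CD45.2, and stranded mRNA libraries were sequenced. Only autosomal genes are described, 14011 of 23346 in the table after a filter on low counts. Class I antigen presentation, Skint, imprinted growth and melanocyte genes are left aside. The day 14 libraries serve to show which changes of the first week were still present a week later.

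In newborn mice the epidermis has only just become a barrier to the outside, and most hair follicles are still growing down into the dermis. Hedgehog and Wnt proteins made by follicle cells drive that growth, and follicle precursors form where Wnt and the ectodysplasin receptor are active. Over the following weeks the first hair shafts emerge, the interfollicular epidermis thins, and skin resident immune cells and microbes become established.

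Total counts were between 50670191 and 62970768 per library. The keratinocyte genes Krt5, Krt14 and Dsp were at 21979.9 ± 911, 12764 ± 318 and 3508 ± 36 CPM (counts per 1000000 counts of the scaled library total) at day 1 (SD, n = 3), against at most 0.18 CPM of Ptprc, the gene of the gated protein, in any library. All 5 leukocyte markers together (Ptprc, Cd3e, Cd68, Tyrobp and Cd207, of which Cd3e and Cd207 were at 0 at day 1) summed to between 3.96 and 4.83 CPM at day 1, 3.08 and 3.33 at day 7 and 10.5 and 11.5 at day 14, most of it Cd68. The gate does not select for a keratinocyte protein, and other cell types left small traces: 6 fibroblast markers (Col1a1, Col1a2, Col3a1, Dcn, Lum and Pdgfra, none at 0 throughout) summed to between 122 and 225 CPM at day 1, between 17.2 and 61.6 at day 7 and between 16.8 and 37.2 at day 14. Sex-linked transcripts differed between the days: Xist was present at days 1 and 14 and absent at day 7, and Ddx3y was present at days 1 and 7 and absent at day 14, so the sex of the animals and their age cannot be told apart. Each day 1 library held both Xist (861 to 1642 CPM) and Ddx3y (29 to 55.6 CPM), and so RNA of both sexes. The spread at day 1 is thus not that between single animals. The day 7 columns have headers of another style, and whether those libraries were handled apart from the others was not tested. Nothing in the labels ties the libraries to separate animals, so the p-values measure only the spread between these libraries.

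From day 1 to day 7, 3573 autosomal genes rose and 3348 fell, which is 25.5% and 23.9% of those tested. A change here is an adjusted p under 0.05 in edgeR's quasi-likelihood test with no fold minimum, so many of these changes are small. Rises of over 2-fold numbered 674 (4.81%) and falls of over 2-fold 1153 (8.23%). For 8446 genes (60.3%) the day 7 libraries all lay above or all lay below the day 1 libraries, so a single gene without overlap is common in this comparison. The median log2 change of all genes tested was -0.000, but -0.099 when library totals alone set the scale (-0.035 and -0.209 from day 7 to day 14), and then 2573 genes rose and 4628 fell. Group medians are given on the first of these scales unless stated. Counts of changed group members are to be read beside the 25.5% of all genes tested that rose and the 23.9% that fell.

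Each changed gene was then followed to day 14. The second step by itself had 4565 rises (32.6%) and 4931 falls (35.2%) among autosomal genes, and 4988 (35.6%) were higher and 5382 (38.4%) lower at day 14 than at day 1. A change is called continued when the gene moved further in the same direction from day 7 to day 14, and kept when that second step did not pass the test and day 14 still differed from day 1. It is called partly undone when the second step ran back but day 14 still differed from day 1 in the first direction. Where the second step ran back in the test, it is called undone if day 14 no longer differed from day 1 in the test. It is called overshot if day 14 then differed from day 1 in the other direction. Of the rises, 1735 (48.6%) continued, 713 were kept, 183 were partly undone, 520 were undone and 303 overshot. Of the falls, 1426 (42.6%) continued, 916 were kept, 146 were partly undone, 377 were undone and 345 overshot. Among falls of over 2-fold, 444 of 1153 were kept and 437 continued, while among rises of over 2-fold 153 of 674 were kept and 418 continued. The remaining 119 rises and 138 falls fitted none of these courses. These comparisons share the day 1 and day 7 libraries, so the counts describe courses and are not independent tests. The plot of changed members by course shows that the courses differed between gene groups, from mostly undone in ribosomal proteins to mostly continued in clock and tight junction genes.

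**Figure D1:**
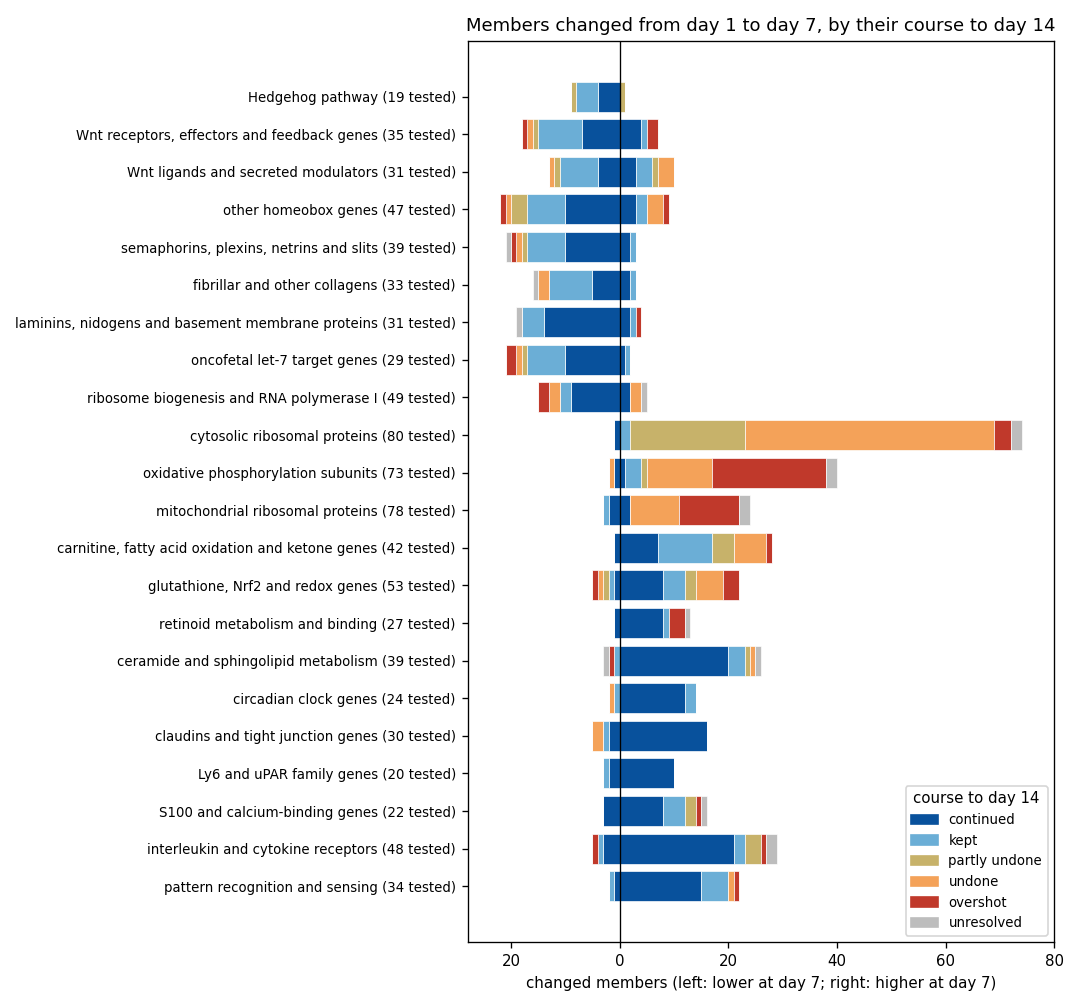
Number of members of each gene group that fell (left) or rose (right) from day 1 to day 7, split by their course to day 14; bars are counts of genes past the test over 3 libraries per day. Ribosomal protein genes carry 46 undone rises, and all 16 rises of tight junction genes continued.

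Hedgehog target genes fell to a small part of their day 1 level within the first week. Shh is the ligand, Ptch1 is its receptor, and Gli1 and Gli2 are transcription factors at the end of the pathway, of which Gli1, like Ptch1, is itself induced by it. Of 19 pathway genes tested, 9 fell and 1 rose, with a median log2 change of -0.80. Shh was at 19.5, 18.6 and 18.4 CPM in day 1 libraries 4, 5 and 6, at 0.347, 1.32 and 0.309 in day 7 libraries 1, 2 and 3 and at 0.759, 0 and 0.0597 in day 14 libraries 4, 5 and 6. The day 1 libraries did not overlap with the others (log2 change -4.81 ± 0.79, SE; adjusted p = 0.00243). Ptch1 was at 601, 481 and 534 CPM at day 1, 68.8, 65.6 and 63.8 at day 7 and 85.1, 85.4 and 77.5 at day 14. It is the only one of the pathway's falls over 2-fold that was partly undone: the small rise after day 7 (log2 change 0.32 ± 0.07, adjusted p = 0.00205) returned a small part of the first fall. Gli1 went from 162, 142 and 145 to 7.93, 8.5 and 7.43 and then 7.19, 5.62 and 8.97 CPM (first step -4.23 ± 0.15, adjusted p = 7.86e-08). Its fall was kept, so nearly all of its change between days 1 and 14 lay in the first week. Gli2 fell from 126 ± 11.3 to 20 ± 2.35 CPM and continued to 10.7 ± 0.729. The co-receptor Gas1 (303 ± 6.2 to 174 ± 5.63 CPM), the ligand releaser Disp1 (63.1 ± 5.8 to 27.1 ± 1.01) and the ciliary regulator Kif7 (23.4 ± 1.22 to 8.52 ± 0.57) fell as well. Scube2, which helps release the ligand from cells, was the single rise (10.8 ± 0.144 to 30.7 ± 6.38 CPM) and was partly undone. Fibroblasts of the follicle base also use this pathway, and the summed level of the fibroblast markers fell over the same week (sums above). Most of that sum at day 1 was Dcn (107 CPM, against 11.5 at day 7). Dcn and Col1a2 did not overlap between the days, whereas Col1a1, Col3a1, Lum and Pdgfra did. The part of fibroblasts in the Hedgehog values was not tested, and in bulk RNA fewer cells of a type and less RNA per cell cannot be told apart.

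**Figure D2:**
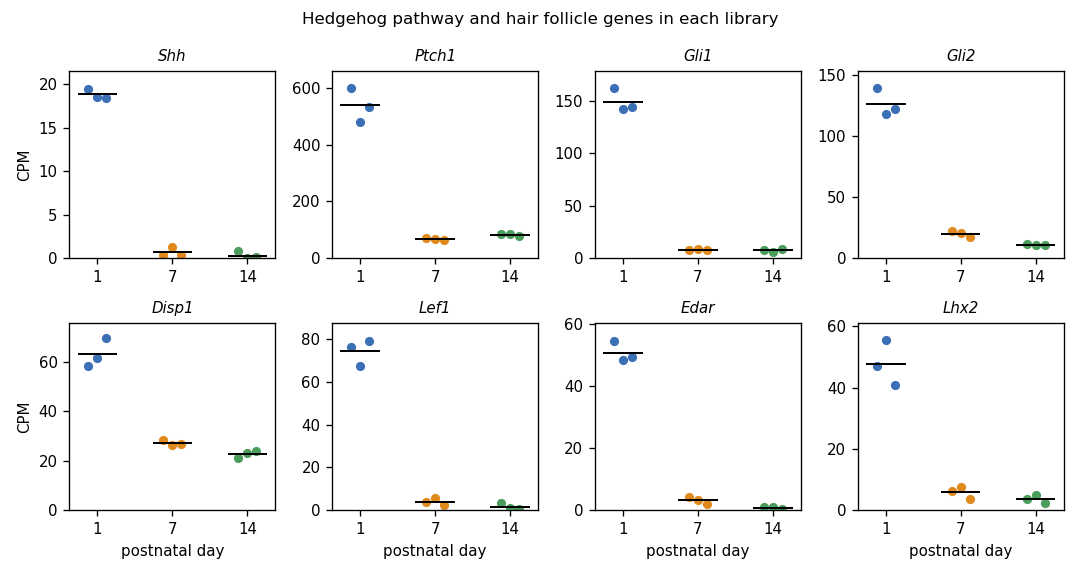
Level in CPM (y axis, linear from 0) of 8 genes in each library (points, 3 per day; bars are means) at postnatal days 1, 7 and 14. In Shh, Ptch1, Gli1, Gli2, Disp1, Lef1, Edar and Lhx2 every day 1 library lies above every day 7 and day 14 library.

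Several markers of follicle precursors fell in the same week. Edar, the ectodysplasin receptor, was at 54.6, 48.2 and 49.4 CPM at day 1, 4.41, 3.26 and 2.07 at day 7 and 0.899, 1.13 and 0.458 at day 14 (first step -3.95 ± 0.28, adjusted p = 1.66e-05). Foxi3, a transcription factor of follicle precursors, went from 12.5, 13.2 and 12.6 to 0.521, 0.163 and 0.135 CPM (adjusted p = 8.64e-07) and its fall was kept. In all, 4 of 10 genes of the ectodysplasin pathway and the hair placode fell. Lhx2, a homeobox factor of follicle progenitors, fell from 47, 55.4 and 40.9 to 6.21, 7.55 and 3.81 CPM (adjusted p = 0.000229) and Sox13 from 19.9 ± 3.93 to 1.96 ± 0.4 CPM, both kept. Of 47 homeobox genes outside the Hox clusters, 22 fell and 9 rose. The rises included Hopx, a homeodomain protein without DNA binding (29.7 ± 2.42 to 81.9 ± 5.26 CPM, continued to 129 ± 8.07). Barx2 rose and overshot (188, 261 and 97.6 CPM at days 1, 7 and 14). Among Sox genes, Sox7 rose from 13.7, 21.9 and 20.7 to 124, 113 and 126 CPM and stayed at 131, 109 and 107 (first step 2.69 ± 0.18, adjusted p = 1.63e-05).

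Of 35 Wnt receptors, effectors and feedback genes 18 fell and 7 rose, or 20 and 3 with library totals alone. Of 31 secreted Wnt ligands and modulators 13 fell and 10 rose, and the difference between these groups was not tested. Lef1, the nuclear partner of beta-catenin in follicle cells, was at 76.3, 67.4 and 79.1 CPM at day 1, 3.73, 5.56 and 2.55 at day 7 and 3.2, 1.19 and 0.497 at day 14 (first step -4.22 ± 0.50, adjusted p = 0.000568). Kremen2, a co-receptor of Dkk inhibitors, fell from 127, 135 and 152 to 26.7, 26.1 and 25.7 CPM (adjusted p = 3.01e-10) and only to 21.7, 22.6 and 23.5 at day 14. Nkd1, a feedback inhibitor, fell from 7.89 ± 0.717 to 0.682 ± 0.153 CPM. The receptors Fzd3 (40.7 ± 1.18 to 13.9 ± 0.322) and Ror1 (101 ± 4.32 to 46.5 ± 1.63) fell with them, whereas Axin2, another feedback gene, was slightly higher (107 ± 3.47 to 123 ± 6.53, log2 change 0.21 ± 0.05), a call that library totals alone did not give. Fzd5, Fzd10 and Apcdd1 were also among the 7 rises of the receptor, effector and feedback genes. Ligands moved both ways, and some turned after day 7. Wnt10b fell from 119.7, 109.9 and 128 to 44.9, 48.2 and 46.2 CPM and was kept at 41.7, 40.4 and 46.3. Wnt7b fell from 268, 265 and 276 to 115, 117 and 112 CPM and rose again to 229, 222 and 242; its fall was partly undone (second step 1.01 ± 0.05, adjusted p = 2.65e-09). Wnt3 rose from 149, 155 and 153 to 265, 288 and 282 CPM (adjusted p = 3.75e-08) and was partly undone. The secreted inhibitor Sostdc1 rose from 108, 102 and 87 to 250.3, 177 and 202 CPM and was undone at 109, 99 and 86.

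Bmp signals, which restrain follicle growth in later skin, split between ligands. Of 46 genes of Bmp, Tgf-beta and activin signalling 15 rose and 16 fell, where 25.5% of all autosomal genes tested rose and 23.9% fell. The ligand Bmp4 was at 8.05, 8.49 and 8.59 CPM at day 1, 30, 33.3 and 33.1 at day 7 and 111, 111 and 124 at day 14 (first step 1.94 ± 0.07, adjusted p = 1.31e-09). Bmp3 rose from 7.81, 6.27 and 4.54 to 19.1, 21.5 and 25.8 CPM and also continued. The ligand Bmp7 fell from 175, 166 and 169 to 87.9, 76.6 and 82 CPM and continued to 52.4, 47 and 44.8, as did the receptor Bmpr1b (48.1 ± 4.4 to 25.2 ± 1.08). In both Bmp4 and Bmp7 the 3 days did not overlap, in opposite orders. The activin receptor Acvr2b fell from 36.6, 33.3 and 37 to 14.2, 14.1 and 15.2 CPM and was partly undone at 22.6, 23.2 and 21.9. In the Notch pathway, which guides cell fate in skin, the effector Hes1 rose from 49.2, 61.4 and 73.6 to 199, 116 and 147 CPM and was kept, while the modifier Lfng fell from 46.7, 44.9 and 42.2 to 32.9, 22.5 and 26 and overshot to 94.4, 93.5 and 98.6. Fgf receptors moved apart: Fgfr1 fell from 159, 140.3 and 116 to 59.7, 50.6 and 45.4 CPM and was kept at 54.4, 62.2 and 59.1, and Fgfr3 rose from 362 ± 24.8 to 499 ± 21.8 and continued.

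Genes of the fetal growth programme that were listed as targets of the let-7 microRNAs fell in most cases. MicroRNAs bind target transcripts through their seed, bases 2 to 8, and let-7 is the classic family that rises as tissues mature. The microRNAs themselves were not measured by these mRNA libraries, and their part in the falls was not tested. In the RefSeq table of mature mouse microRNAs (GRCm38.p6), let-7a, let-7d and miR-98 share 1 seed, shown in capitals because the sites below pair with it:
mmu-let-7a-5p: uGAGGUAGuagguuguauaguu
mmu-let-7d-5p: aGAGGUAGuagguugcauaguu
mmu-miR-98-5p: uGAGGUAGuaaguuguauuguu
The 3′ UTR of the Hmga2 transcript Hmga2-203 (GENCODE M21) holds 4 matches to that seed, in capitals:
site 1: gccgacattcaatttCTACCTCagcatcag
site 2: ccccactcctcaataCTACCTCtgaatgct
site 3: ctgatttgcaaggaaCTACCTCcacacttc
site 4: aatcaaaacacactaCTACCTCttaagtcc
Of 29 genes of the list with an annotated 3′ UTR, 24 hold CTACCTC on the sense strand of their longest one, against 10.5% of 12856 autosomal genes tested, a share that follows from how the list was chosen.

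Of the 29 genes of that list tested, 21 fell and 2 rose by day 7, with a median log2 change of -0.32. Hmga2, a chromatin protein of embryonic growth (chromosome 10, 120361268 to 120476469), was at 20.2, 12.8 and 15.5 CPM at day 1, at 0.0316, 0.0652 and 0 at day 7 and at 0, 0.0377 and 0.0398 at day 14. The day 7 and day 14 values rest on a few counts per library or on none, so the size of the fitted log2 change (-8.81 ± 0.40, adjusted p = 2.82e-08) depends on the prior count and is no bound. Igf2bp1, an RNA-binding protein of fetal tissues whose transcript holds 4 such sites, fell from 35.7, 28.5 and 37.8 to 6.27, 6.77 and 5.88 CPM and continued to 0.14, 0.207 and 0.418. Its relative Igf2bp2 fell from 40.5, 24.5 and 29.9 to 6.71, 4.01 and 3.91 CPM and continued to 2.13, while Igf2bp3 fell less (log2 change -0.49 ± 0.05). The growth regulator Mycn, with no such site in its longest UTR, fell from 14.1 ± 2.11 to 4.88 ± 1.71 CPM and Plag1, also with none, from 17.9 ± 0.861 to 9.38 ± 0.319. Hic2, a repressor with 4 sites, fell from 24.6 ± 1.84 to 13.1 ± 3.13 CPM and overshot to 45.9 ± 3.12. Of the 21 falls, 10 continued, 7 were kept, 1 was partly undone, 1 was undone and 2 overshot.

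Many extracellular matrix genes fell in the first week, including collagens of the basement membrane. Of 33 collagen genes 16 fell and 3 rose, and of 31 laminins and other basement membrane proteins 19 fell and 4 rose. The summed level of the collagens was nonetheless higher, at 10382 CPM against 8919 at day 1, with the abundant Col17a1 included. Col4a1, a main chain of basement membrane collagen, was at 464, 413 and 351 CPM at day 1, 86.6, 93.9 and 88 at day 7 and 64, 74.1 and 84.5 at day 14 (first step -2.19 ± 0.12, adjusted p = 9.99e-07), a fall that was kept. Col27a1 fell from 56.8, 52.9 and 48.3 to 1.75, 1.53 and 0.928 CPM (adjusted p = 2.72e-08) and Col5a2 from 81.5, 73.2 and 77.9 to 6.92, 7.63 and 5.38, and both continued. Hspg2, the basement membrane proteoglycan perlecan, fell from 802 ± 50.6 to 286 ± 29 and then 107 ± 13.3 CPM. Fras1 and Frem1, which anchor epidermis to dermis, both fell. Frem1 went from 18.8, 13.4 and 11.5 to 0.253, 1.35 and 0.426 CPM in the first week, while Fras1 was at 385, 168 and 2.9 CPM at days 1, 7 and 14. Rises among collagens and other genes of the dermal junction included hemidesmosome genes of basal keratinocytes. Col17a1 rose from 4749, 4583 and 4608 to 6440.0, 6603 and 6718 CPM and was kept at 5717, 6334 and 7714, and its linkers Dst (0.37 ± 0.07 log2) and Plec (0.39 ± 0.07 log2) rose and continued. Col23a1, a transmembrane collagen, rose from 7.29 ± 2.5 to 20.8 ± 1.04 CPM and Smoc2, a matricellular protein, from 302 ± 16.2 to 466 ± 27.4. Npnt, a basement membrane integrin ligand, rose from 116 ± 9.79 to 196 ± 4.24 CPM and overshot to 88.5 ± 4.27.

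Of 14 genes of hyaluronan synthesis, binding and breakdown 7 fell and 2 rose, with a median log2 change of -0.17. Only 1 rose with library totals alone. The rises included the hyaluronidase Hyal1 (35.2 ± 1.44 to 52.1 ± 0.69 CPM). The synthase Has3 was at 122, 102 and 107 CPM at day 1, 11.7, 12.1 and 12.3 at day 7 and 4.23, 2.19 and 2.61 at day 14 (first step -3.19 ± 0.18, adjusted p = 3.07e-06). The hyaluronan-binding proteoglycan Vcan fell from 86.1, 80 and 70.1 to 4.55, 6.1 and 2.48 CPM, and Cemip, which takes part in hyaluronan breakdown, from 13.9, 15.2 and 13.2 to 0.363, 0.196 and 0.058. Fibroblast genes moved in the same direction as the matrix: Dcn fell from 133, 79.6 and 108 to 8.57, 15 and 10.9 CPM, and of 15 genes of the fibroblast list tested 7 fell and 1 rose. The falls numbered 4 without day 1 library 4 or without day 7 library 1, and 3 without day 7 library 3. The part of fibroblasts in the matrix falls was not tested. Of 49 matrix-cutting metalloproteinases and their inhibitors 20 fell and 8 rose, although 7 fell under the stricter filter on low counts, which tests fewer genes. The versican-cutting protease Adamts9 fell from 135, 132 and 121 to 28.8, 23.8 and 20.9 CPM and Adamts17 from 62 ± 6.56 to 7.69 ± 3.64, whereas Mmp28, an epidermal metalloproteinase, rose from 6.32, 8.91 and 9 to 33.6, 37.5 and 37.1. Many genes of axon guidance, which are also used by epithelium and vessels, fell as well, 21 of 39 with 3 rises. Their summed level was nearly unchanged, at 3204 CPM at day 7 against 3213 at day 1. Sema3b fell from 19.3, 18.7 and 16.9 to 1.55, 1.19 and 0.832 CPM, the neuropilin receptor Nrp2 from 70.3, 63.5 and 49.4 to 4.26, 8.84 and 2.9 and Sema6a from 34 ± 1.66 to 6.72 ± 0.939. Sema3d and Sema3c were rises within the family. Sema3d went from 102, 107 and 109.8 to 267, 278 and 292 CPM and was kept at 256, 279 and 311, and Sema3c from 199.7 ± 15.4 to 403 ± 16.4.

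Cytosolic ribosomal protein transcripts rose at day 7 and mostly fell back by day 14. Of 80 cytosolic ribosomal protein genes 74 rose and 1 fell, by a median log2 change of 0.33, followed by -0.26 from day 7 to day 14. By day 14, 46 of these rises were undone, 21 partly undone and 3 overshot, and 2 were kept. With library totals alone 65 of these genes rose and 1 fell by day 7. Over all autosomal genes that scale gave 330 undone and 383 overshot rises, against 520 and 303. The course called for such small changes thus depends on the scale. The rises were small: tested against a change of 1.5-fold in place of no change (edgeR's glmTreat), 0 ribosomal protein genes passed after adjustment and 0 at an unadjusted p under 0.05. Rpl4, a large subunit protein, was at 1770.3, 1718 and 1724 CPM at day 1, 2282, 2174 and 2246 at day 7 and 1891, 1839 and 1693 at day 14 (first step 0.36 ± 0.05, adjusted p = 3.77e-05; second step -0.31 ± 0.05, adjusted p = 7.84e-05). All day 7 libraries lay above the others, a small change of an abundant transcript. Ribosomal protein transcripts are known for a run of C and T at their start that ties their translation to growth signals. The bases from 25 before to 25 after the RefSeq start of Rpl4 (GRCm38.p6, chr9:64173362-64173411, plus strand) hold the letters CTTTCC, in capitals, which start 17 bases before that start and end before it, so they lie outside the annotated transcript:
Rpl4: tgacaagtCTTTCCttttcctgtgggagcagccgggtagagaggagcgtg
The letters CTTTCC stand on the sense strand of that window in 10 of 58 ribosomal protein genes with a promoter in the table, against 2.92% of autosomal genes tested, and on the antisense strand in 1 and 2.51%.

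Oxidative phosphorylation subunits make up the respiratory chain and ATP synthase. Of 73 tested 40 rose and 2 fell, with a median of 0.18 in the first step and -0.41 in the second, although only 17 rose and 4 fell when library totals alone set the scale, and 1 passed the test against 1.5-fold. At day 14, 12 of the rises were undone and 21 overshot. Atp5g3, a subunit of ATP synthase, was at 149, 167 and 146 CPM at day 1, 190.2, 189 and 188 at day 7 and 137, 133 and 129 at day 14. Of 78 mitochondrial ribosomal proteins 24 rose and 3 fell, a share of rises near the 25.5% of all autosomal genes, and with library totals alone 7 rose and 6 fell. Of their rises, 9 were undone and 11 overshot. Of 49 factors that build ribosomes 15 fell, a share near the 23.9% of all genes, and 5 rose, with a median log2 change of -0.08 (29 and 1 with library totals alone). Myc, which drives their transcription, rose from 142, 137 and 184 to 406, 288 and 309 CPM and continued. Of 17 heat shock genes 8 rose and 1 fell, or 8 and 3 with library totals alone. Hspa1a, an inducible chaperone with a near-identical copy, was at 1887, 2127 and 2561 CPM at day 1, 3423, 3428 and 3741 at day 7 and 1163, 1333 and 1283 at day 14. Of 18 immediate early genes, a group listed as a check of handling, 3 rose and 2 fell in the first week. From day 7 to day 14, 17 of them rose, where 32.6% of all autosomal genes tested rose. Their summed level was 18812, 20414 and 42935 CPM at days 1, 7 and 14. The part of handling in the shifts of these groups, in either step, was not tested.

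**Figure D3:**
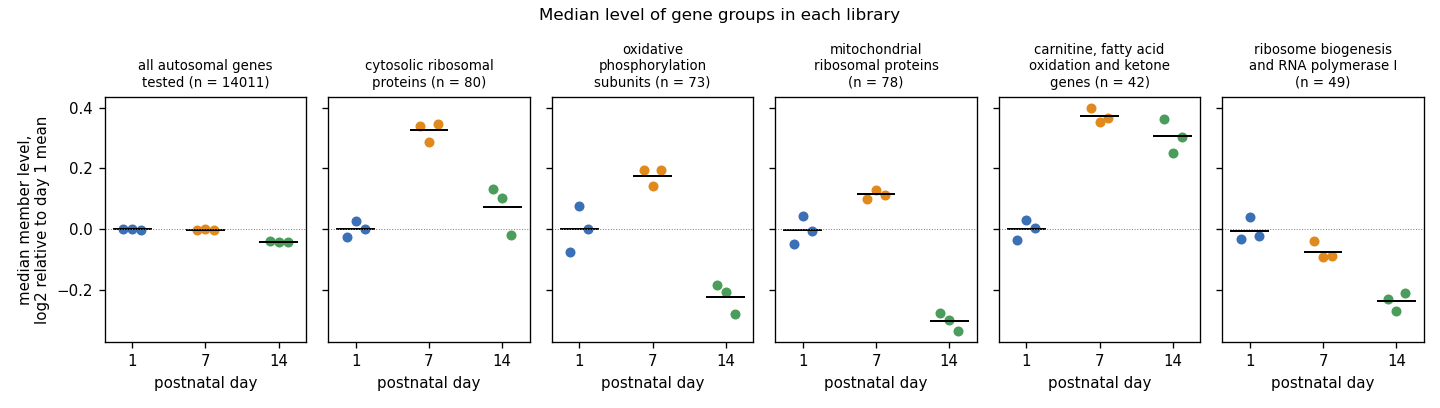
Median over the members of each group of the log2 level in a library relative to the day 1 mean (y axis; log2 of CPM + 0.1), for each of 3 libraries per postnatal day (points; bars are means). Ribosomal protein and oxidative phosphorylation medians are highest at day 7, and the fatty acid oxidation median stays above day 1 at day 14.

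Genes of fatty acid fuel use rose in the first week, by small amounts in most cases. Of 42 genes of carnitine synthesis, fatty acid oxidation and ketone use 28 rose and 1 fell (26 and 1 with library totals alone), and 5 rises passed the test against 1.5-fold. By day 14, 10 of the rises were kept and 7 continued, while 4 were partly undone, 6 undone and 1 overshot. Bbox1, the last enzyme of carnitine synthesis, was at 2.84, 3.76 and 2.46 CPM at day 1, 72.4, 71 and 82.4 at day 7 and 216, 200.5 and 191 at day 14 (first step 4.64 ± 0.14, adjusted p = 2.72e-08). Cpt1a, which makes acylcarnitine for import into mitochondria, rose from 109, 111 and 115 to 163, 172 and 170.4 CPM and was kept at 153, 158 and 171, as was the carrier Slc25a20 (0.58 ± 0.05 log2). The dehydrogenases Acadl (39.3 ± 0.836 to 75.9 ± 2.27 CPM) and Acadvl (83 ± 3.83 to 125 ± 2.31) continued. Oxct1, which lets cells burn ketone bodies, rose from 267, 327 and 313 to 463, 473 and 471 CPM and was undone at 318, 313 and 323. Bdh1, another ketone enzyme, was the single fall. Phyh, a peroxisomal enzyme of branched fatty acids, rose from 3.27, 3.52 and 2.95 to 19.2, 19.6 and 24.5 CPM and was kept.

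Detoxifying genes rose in part for day 7 alone. Of 53 glutathione and redox genes 22 rose and 5 fell. Catalase (Cat) was at 79.3, 86.7 and 78.2 CPM at day 1, 176, 159.8 and 178 at day 7 and 160.2, 145 and 137 at day 14, partly undone. The glutathione transferases Gstm2 (87.5, 148 and 64.5 CPM) and Mgst1 (10.9, 23.8 and 9.54 CPM) lost their rises, Gstm2 falling below its day 1 level. Nqo1, a target of the oxidant sensor Nrf2, rose from 2.8, 2.94 and 2.9 to 10.4, 10.7 and 11.3 CPM and was kept. In retinoid metabolism 13 of 27 genes rose and 1 fell. Adh7, an alcohol dehydrogenase that oxidises retinol, was at 3.11, 3.54 and 4.1 CPM at day 1, 55.9, 46.6 and 55.1 at day 7 and 82.5, 82.3 and 75.8 at day 14 (first step 3.88 ± 0.10, adjusted p = 6.62e-10), and Rdh12, a retinal reductase, rose from 8.46, 10.8 and 11.7 to 40, 44.2 and 44.7 CPM and continued. Of 39 ceramide and sphingolipid genes 26 rose and 3 fell, and 20 of the rises continued. The lipoxygenase Alox12e rose from 13.9, 16.8 and 12.3 to 99.1, 72.6 and 83.3 CPM, and Sgpp1, a sphingosine phosphate phosphatase, from 79.1 ± 2.7 to 207 ± 9.91.

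Of 30 prostaglandin and leukotriene genes 10 rose and 6 fell, where 25.5% of all autosomal genes tested rose and 23.9% fell. Ptges, the prostaglandin E synthase, rose from 27.5, 20.3 and 26.3 to 93.7, 72.7 and 78.1 CPM and continued, and its receptor Ptger4 from 37.8, 32.1 and 48.6 to 137, 149 and 166 and continued. The prostaglandin uptake carrier Slco2a1 rose from 54.4, 62.4 and 49.7 to 221, 210.2 and 233 CPM and was kept at 204, 228 and 228. Synthases of prostaglandin D fell instead. Ptgds went from 14.2, 17 and 16.4 to 3.14, 2.12 and 3.15 CPM. Hpgds was at 50.6, 44.3 and 58.3 CPM at day 1, 13.3, 13.4 and 12.4 at day 7 and 115, 119 and 122 at day 14, so that its day 7 libraries lay below all others and its day 14 libraries above all others (first step -1.97 ± 0.09, adjusted p = 1.32e-08; second step 3.18 ± 0.09, adjusted p = 1.97e-10).

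Many circadian clock genes rose in the first week and went on rising. The clock is a loop in which Arntl and Npas2 or Clock activate Per, Cry and Nr1d genes, Nr1d proteins repress Arntl, and Dbp, Tef and Hlf carry the rhythm to output genes. Of 24 clock genes 14 rose, 2 fell, and 12 of the rises continued, with a median log2 change of 0.49 in the first step and 0.83 in the second. Promoters of 2 of them are shown for the elements that clock proteins bind, from 250 bases before to 50 after the RefSeq start (GRCm38.p6), with the D-box TTATGTAA (bound by Dbp, Tef, Hlf and Nfil3) or the E-box CACGTG (bound by Arntl and its partners) in capitals. The Per3 window is chr4:151044616-151044915 on the minus strand and the Tef window chr15:81802423-81802722 on the plus strand:
Per3: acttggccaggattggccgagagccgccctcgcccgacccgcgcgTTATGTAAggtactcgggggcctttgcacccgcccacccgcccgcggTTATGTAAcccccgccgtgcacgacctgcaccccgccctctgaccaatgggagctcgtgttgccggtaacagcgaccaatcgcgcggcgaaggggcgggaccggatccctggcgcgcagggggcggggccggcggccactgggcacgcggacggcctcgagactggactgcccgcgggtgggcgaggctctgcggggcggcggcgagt
Tef: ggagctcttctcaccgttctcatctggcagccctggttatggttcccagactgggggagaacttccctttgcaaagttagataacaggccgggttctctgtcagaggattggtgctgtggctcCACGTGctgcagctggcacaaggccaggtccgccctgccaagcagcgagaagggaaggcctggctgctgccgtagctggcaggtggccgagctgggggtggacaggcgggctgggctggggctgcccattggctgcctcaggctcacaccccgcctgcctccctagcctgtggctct
On either strand, the D-box stands in 1 of 19 clock genes with a promoter in the table and in 0.639% of autosomal genes tested, and the E-box in 5 of 19 and in 11.4%; the E-box reads the same on both strands, and the motifs do not overlap. A match of letters describes a sequence and shows no binding.

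Both arms of the loop rose together. Nr1d1, a repressor, was at 9.82, 8.95 and 8.48 CPM at day 1, 42, 39.6 and 40.5 at day 7 and 347, 332 and 380.0 at day 14 (first step 2.16 ± 0.07, adjusted p = 6.62e-10). Its target Arntl, an activator, rose from 21.2, 23.1 and 20.9 to 50.4, 49.5 and 53.5 and then 82.7, 94.2 and 95.3 CPM (first step 1.23 ± 0.06, adjusted p = 2.73e-08). Npas2, a partner of Arntl, rose from 2.66, 2.09 and 2.26 to 10.8, 11.7 and 10.3 CPM and continued to 25.3, 27.7 and 28.7. The output factor Hlf was at 4.56, 3.04 and 3.53 CPM at day 1, 37.5, 41.6 and 53 at day 7 and 113, 104 and 109 at day 14 (first step 3.56 ± 0.18, adjusted p = 1.16e-06). Tef rose from 40.8 ± 4.37 to 87.5 ± 10.7 CPM and Per3 from 9.31 ± 1.57 to 17 ± 2.16. Libraries of a day lay close to each other in these genes, as the plot of clock genes shows. The time of day of collection is not in the labels, so age and hour cannot be told apart. The kinase Csnk1e, which marks Per proteins for breakdown, fell from 107, 107 and 111 to 69.4, 65.8 and 66.9 CPM and was undone at 89.1, 113 and 113.

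**Figure D4:**
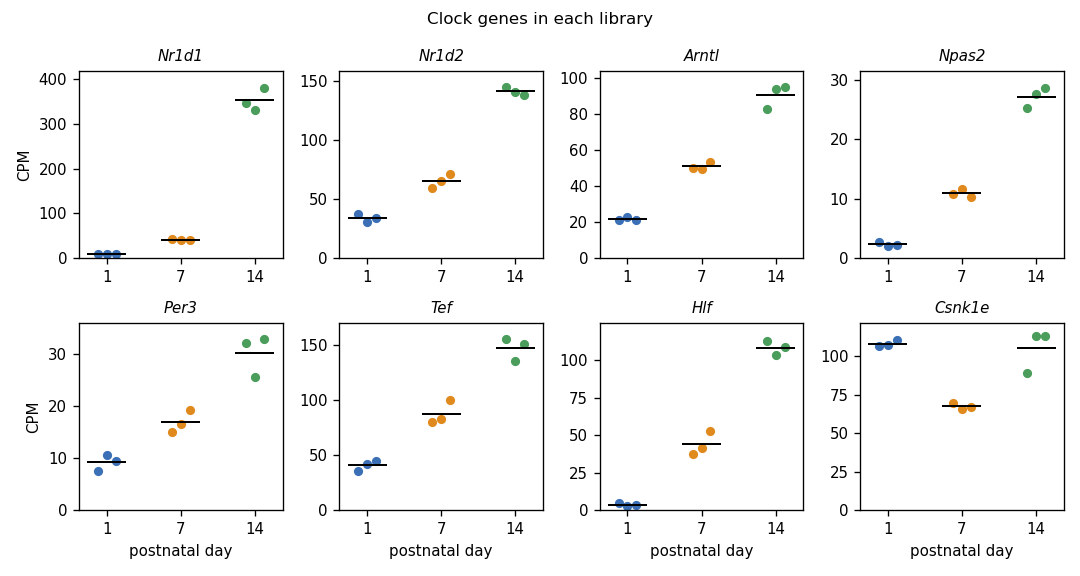
Level in CPM (y axis, linear from 0) of 8 clock genes in each library (points, 3 per day; bars are means) at postnatal days 1, 7 and 14. The 7 genes other than Csnk1e rise at both steps, and Csnk1e is lowest at day 7.

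Many barrier genes rose without turning back. Of 30 tight junction and polarity genes 16 rose, all of them continued, and 5 fell. With library totals alone 11 rose and 7 fell, and 2 rises passed the test against 1.5-fold. Cldn1, the main claudin of the granular layer barrier, was at 248, 214 and 252 CPM at day 1, 336, 317 and 343 at day 7 and 544, 531 and 489.8 at day 14. Ocln (0.48 ± 0.07 log2) and Tjp1 (0.31 ± 0.04 log2) rose as well. Cgnl1, a junction scaffold, fell from 32.4, 35.3 and 30.4 to 5.64, 5.36 and 4.22 CPM and was kept at 4.75, 7.22 and 4.24. All 10 rises among 20 Ly6 family genes, small membrane-anchored proteins, continued as well, with Ly6a going from 9.92, 8.4 and 8.85 to 28.8, 33.7 and 36.4 and 126, 130.0 and 136 CPM. Of 22 S100, annexin and calmodulin-like genes 16 rose and 3 fell. S100a6 rose from 88, 97 and 81.4 to 224, 223 and 229 CPM and was partly undone, and Anxa8 from 476 ± 4.24 to 1018 ± 57.6 and then 2255 ± 43.6.

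Keratins moved both ways, with 8 of 22 epidermal keratins higher and 7 lower, where 25.5% of all autosomal genes tested rose and 23.9% fell. Krt15, a keratin of basal and follicle stem cells, was at 3968, 5252 and 4693 CPM at day 1, 10137, 10963 and 11104 at day 7 and 8451, 8094 and 8720.3 at day 14 (first step 1.21 ± 0.09, adjusted p = 2.71e-06). The day 7 libraries were the highest, while the basal keratin Krt14 fell by 0.29 on the log2 scale over the same week. Krt6b, a keratin of activated and follicle keratinocytes, fell from 28.5, 19.8 and 16.7 to 4.26, 2.92 and 3.75 CPM and was kept, and its relative Krt6a fell from 111 ± 20.1 to 62.8 ± 4.38. Krt77, a keratin of differentiated layers, rose from 64.4, 106 and 76.3 to 1077, 946 and 1008 CPM and continued, and Krt80 from 101 ± 8 to 322 ± 6.08. Of 14 follicle keratins tested 6 rose, 5 of them kept, but 3 rose in limma-voom. Krt32, of the hair cuticle, was at 5.37, 6.84 and 5.58 CPM at day 1, 22.9, 25.1 and 28.6 at day 7 and 22.9, 21.3 and 24.7 at day 14.

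Some differentiation genes peaked at day 7. The transglutaminase Tgm3, which crosslinks hair and cornified envelope proteins, was at 112, 161 and 121 CPM at day 1, 658, 691 and 661 at day 7 and 107, 111 and 128 at day 14. Its rise (log2 change 2.35 ± 0.14, adjusted p = 2.78e-06) was undone (second step -2.54 ± 0.14, adjusted p = 8.31e-07). Sprr2a1, Sprr2a2 and Sprr2a3, near-identical cornified envelope genes whose reads cannot be told apart with certainty, each rose and overshot. Sprr2a3 was at 8.18, 6.5 and 7.26, then 20.6, 16.2 and 21 and then 2.26, 2.39 and 1.69 CPM. Other envelope genes did not turn: Ivl rose from 0.725, 1.25 and 0.96 to 9.27, 6.64 and 7.64 CPM and continued to 16.1, 10 and 11.8. The serpin Serpina3b (18, 54.9 and 11.5 CPM), the cytochrome Cyp2f2 (17.7, 49.4 and 0.931 CPM) and the galectin Lgals9 (62.3, 157 and 55 CPM) also peaked at day 7 and overshot. Hemoglobin genes, of red blood cells, rose and were undone, at levels that varied widely between day 7 libraries: Hbb-b1, whose reads can be shared with near-identical copies, was at 14.8, 46 and 31.6 CPM there, against 2.06, 0.692 and 0.504 at day 1 and 4.73, 0.189 and 0.876 at day 14.

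**Figure D5:**
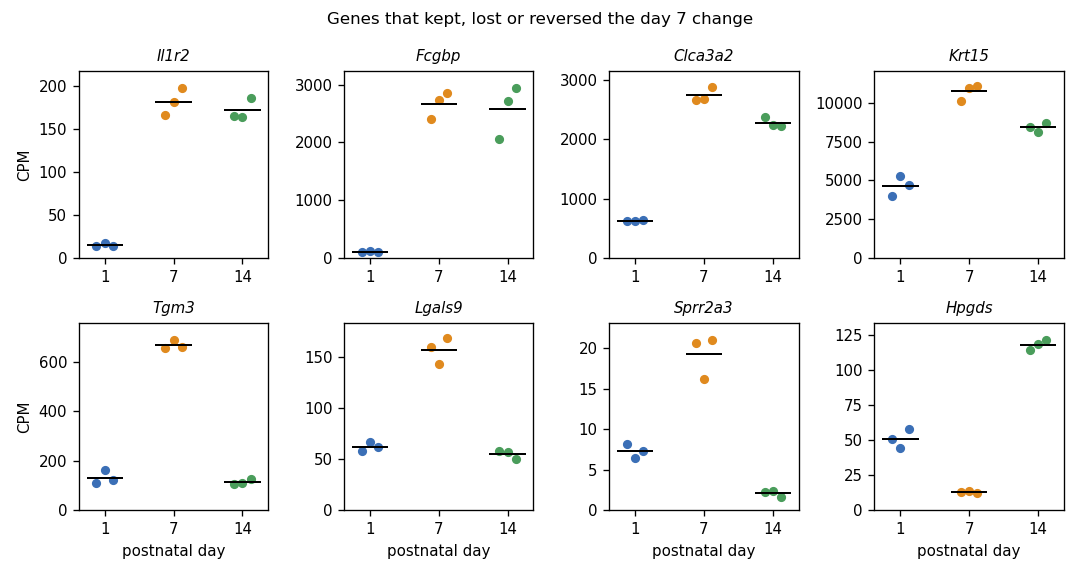
Level in CPM (y axis, linear from 0) of 8 genes in each library (points, 3 per day; bars are means) at postnatal days 1, 7 and 14. Il1r2, Fcgbp and Clca3a2 hold most of their day 7 level at day 14, Tgm3, Lgals9 and Sprr2a3 return to or below day 1, and Hpgds is lowest at day 7.

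Of 37 chloride and sodium channels and aquaporins 12 rose and 11 fell, near the 25.5% and 23.9% of all autosomal genes, or 11 and 12 with library totals alone. Clca3a2, a calcium-activated chloride channel regulator (chromosome 3, 144780581 to 144819623), was at 629, 625 and 642 CPM at day 1, 2668, 2685 and 2887 at day 7 and 2374, 2246 and 2223 at day 14 (first step 2.12 ± 0.05, adjusted p = 1.03e-10). Its relatives Clca2 (47.6, 49.7 and 53.4 to 177, 191 and 205 CPM, continued) and Clca1 (1.15, 0.788 and 1.27 to 10.5, 8.45 and 10.9, kept) rose with it. Subunits of the epithelial sodium channel parted: Scnn1a rose from 9.94, 13.5 and 13 to 41.9, 40.7 and 42.9 CPM, while Scnn1b fell from 5.06, 3.52 and 2.98 to 0.268, 0.294 and 0.406 and Scnn1g from 7.82 ± 1.8 to 1.77 ± 0.422. Fcgbp, a secreted mucin-like protein, was at 99.3, 125 and 98.2 CPM at day 1, 2405, 2734 and 2857 at day 7 and 2063, 2718 and 2936 at day 14 (first step 4.63 ± 0.18, adjusted p = 6.24e-07). It had the largest log2 change of the kept rises of at least 10 CPM in any day's mean. That ranking left out pseudogenes, unnamed gene models and the groups left aside. Susd2, a membrane protein, rose from 4.26 ± 1.14 to 101 ± 6.42 CPM and continued to 308 ± 29.2.

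Among immune genes outside antigen presentation, rises outnumbered falls in each group counted. Of all autosomal genes tested, 25.5% rose and 23.9% fell. Interferon response and Stat genes numbered 35 rises and 6 falls of 67. Complement and coagulation genes numbered 8 and 3 of 21, or 7 and 5 with library totals alone. Cytokines numbered 12 rises and 5 falls of 29, and chemokines and their receptors 13 and 4 of 31. Of 48 cytokine receptor genes 29 rose and 5 fell, with a median log2 change of 0.44. Il1r2, the decoy receptor that binds interleukin 1 without signalling, was at 14.5, 17 and 13.7 CPM at day 1, 166, 182 and 198 at day 7 and 166, 164 and 187 at day 14 (first step 3.60 ± 0.10, adjusted p = 1.69e-09), and Il1rn, which blocks the signalling receptor, rose from 33.8 ± 3.46 to 77.9 ± 3.86 CPM. The day 7 and day 14 libraries of Il1r2 overlapped. The interferon gamma receptor Ifngr1 rose from 42.7, 32.2 and 37.6 to 111, 124 and 125 CPM, the interleukin 6 receptor Il6ra from 48.5, 48.2 and 50.3 to 139, 147 and 151 and Il20ra from 0.459, 0.306 and 0.277 to 7.06, 8.64 and 9.26, and all continued. Cntfr, the receptor of a neurotrophic cytokine, fell from 44.1, 38.6 and 38.7 to 1.82, 2.98 and 1.59 CPM and was kept at 2.96, 2.81 and 1.51. Of 34 genes that sense microbes and nucleic acids 22 rose and 2 fell. Nod2, a sensor of bacterial peptidoglycan, was at 12.8, 12.6 and 12 CPM at day 1, 57.2, 42.9 and 44.1 at day 7 and 162, 185 and 169 at day 14, and Tlr3, a sensor of double-stranded RNA, rose from 3.11, 3.6 and 3.47 to 10.7, 10.9 and 12. Il33, an alarmin, rose from 11.8, 11.5 and 12.2 to 55.7, 59.1 and 61.9 CPM and continued. Kitl, the ligand of the Kit receptor on melanocytes and mast cells, fell from 66.1, 57.1 and 60.5 to 14.4, 17.7 and 10.6 CPM and was kept. Epgn, an Egf family ligand, rose from 24.3, 26 and 28.6 to 109, 105 and 103 CPM.

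The difference between the steps was tested directly, as the day 1 to day 7 change minus the day 7 to day 14 change. It passed in the positive direction for 3876 genes (27.7%) and in the negative direction for 3390 (24.2%). Genes that rose by over 2-fold in the first step and rose more in it than in the second included Il1r2 (difference 3.68 ± 0.15 log2, adjusted p = 9.06e-08) and Clca3a2 (2.39 ± 0.07, adjusted p = 1.75e-09). Ptch1 (-3.35 ± 0.14, adjusted p = 2.91e-08) and Kremen2 (-2.19 ± 0.12, adjusted p = 1.28e-07) fell more in the first step than in the second.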

How the data were processed

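Sorted keratinocytes of postnatal days 1, 7 and 14 were measured by stranded mRNA sequencing in 3 libraries per day. The submitters' processing notes name StringTie 1.3.4d, HISAT2 2.1.0, bcl2fastq 2.20.0 and Trimmomatic, and genome build mm10. How reads were counted, with which strand option and gene models, is not given in the sources used here. The authors deposited raw read counts per gene in 1 table, and its other 18 columns of values per library were not used. Columns named D0 were taken as day 1, the earliest day of the labels.

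The counts were fitted in edgeR 4.0.16 (R 4.3.3) with TMM scaling, its low-count filter and the robust quasi-likelihood test over all 9 libraries and all genes. Benjamini-Hochberg adjustment ran over all genes tested, and only autosomal genes are printed. A gene changed when its adjusted p was under 0.05. The standard error is the size of the log2 change divided by the square root of its F statistic. CPM are counts per 1000000 counts of the library total scaled by TMM, and carry no correction for gene length. Tests compared levels only within a gene. Marker levels set side by side and sums over genes are descriptions that lack this correction. On simulated day 7 against day 1 counts of 14320 genes, the test recovered 24% of 1.25-fold, 80% of 1.5-fold, 74% of 2-fold and 98% of 4-fold changes, with 13 false among 151 calls. The simulation used the spread fitted to these libraries and changed only a small share of genes, whereas 49.4% of autosomal genes were called in the data. Its rates describe that setting and do not carry over to the comparison itself.

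Total counts set the precision: 3 counts correspond to between 0.0444 and 0.0599 CPM, and intervals from counts would cover counting error only. Genes were named by rule: the largest rises and falls, the smallest adjusted p within each list, the largest kept or undone changes, and list members needed to complete a pathway. The gene lists and genes were chosen with earlier results of these data known. Alternatives were RLE scaling, library totals alone, TMM without the 50 most abundant genes, DESeq2 1.42.0, limma-voom (limma 3.58.1), no filter, a stricter filter, days 1 and 7 alone, autosomal genes alone, a test against a fold of 1.5, and leaving out each library. Promoter, microRNA and UTR sequences came from RefSeq GRCm38.p6 and GENCODE M21 tables. Near-identical genes (hemoglobins, Sprr2a, Hspa1a, Krt6a and Krt6b, Clca genes) may share reads, and overlapping genes are uncertain because the counting is not given.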

Additional observations from a re-analysis of the deposited data

Results flagged for a closer look

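For 12 genes the change of the first week differed from that of the second in the test of the difference itself, edgeR's quasi-likelihood test of the first step minus the second step on the log2 scale. They were taken as the 6 smallest adjusted p in each direction among genes that changed over 2-fold in the first step. Rises that were larger in the first week, or turned after it, were found in Clca3a2 (2.39), Il1r2 (3.68), the galectin Lgals9 (2.85), the peptidoglycan recognition protein Pglyrp4 (3.16), the hydrolase Abhd12b (3.13) and the envelope gene Sprr2a3 (4.58). Falls that were larger in the first week, or turned after it, were found in Ptch1 (-3.35), Kremen2 (-2.19), Wnt7b (-2.25), the adhesion protein Nlgn2 (-2.93), the RNA-binding protein Mex3a (-3.32) and the prostaglandin D synthase Hpgds (-5.15). Both steps use the day 7 libraries, so a value particular to that day enters the difference with double weight.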

How the results depend on the processing

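The counts of genes changed kept within 1.5 times of those reported under every alternative run other than the test against a fold of 1.5, in which 756 autosomal genes rose and 973 fell; without 1 library at a time, 3114 to 3603 rose and 2773 to 3407 fell. Library totals alone gave 2573 rises and 4628 falls, so that 35.7% of changed genes were higher in place of 51.6%. The same setting moved continued rises to 1145, continued falls to 2490 and undone rises to 330. With the stricter filter, which tests fewer genes, 604 falls were kept and 68 were unresolved. That filter also gave 7 falls of metalloproteinases and their inhibitors, 6 falls of chloride and sodium channels and aquaporins, 6 rises and 7 falls of secreted Wnt genes, 6 rises of cytokines, 23 rises of interferon response genes, 8 of retinoid genes, 2 of follicle keratins and 4 falls of epidermal keratins. Without 1 library at a time unresolved rises ranged from 103 to 216 and unresolved falls from 109 to 227, the higher values when a day 14 library was left out. Of the 145 genes tabulated for the text, 119 kept their direction and call under all settings run. The other 26 lost the call against a fold of 1.5, and Axin2 also lost it with library totals alone (log2 change 0.11, adjusted p = 0.0799). Complement falls numbered 1 without day 1 library 5 or day 7 library 1, and hyaluronan rises 1 without any single library other than day 1 library 6 or day 7 library 3. Tight junction falls numbered 3 without day 1 library 6, and collagen rises 5 without day 14 library 4 or 6. Ribosome biogenesis rises numbered 2 or 3 without day 1 library 4 or 6 or day 7 library 1 or 3. No paired analysis was possible because the columns carry the numbers 4 to 6 at days 1 and 14 and 1 to 3 at day 7, so days 1 and 7 share no number. At this depth, levels under the value of 3 counts per library cannot be told from 0.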
